A study of Mus musculus with 6 samples.

Results

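The granins and prohormone processing enzymes are 10 genes, namely Vgf, Scg2, Scg3, Scg5, Chga, Chgb, Pcsk1, Pcsk2, Cpe and Pam. They were chosen by symbol from a table of RPKM values (read counts divided by gene length and library size) that lists 13724 gene entries, and all 10 were found. The samples came from wild type C57Bl6/J mice, all exposed to warmth, and the tissue is labelled as preoptic neurons. Each of 3 numbered warm challenges gave an input library (total RNA of the dissected anterior hypothalamus) and an immunoprecipitate library (IP). The IP holds RNA bound to ribosomes whose protein S6 is phosphorylated at sites 244 and 247. Neuronal activity drives this phosphorylation, so IP against input asks which transcripts are enriched on the ribosomes of active cells. The labels give neither the age and number of the mice nor the temperature and length of the challenge. Without a group at another temperature, no difference between the fractions can be tied to warmth. The antibody takes phosphorylated ribosomes from every cell type in the dissected tissue, not only from neurons.

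Neuropeptides are made as long precursors that are sorted into dense-core vesicles and cut there before release. Granins are acidic proteins of these vesicles. They help the vesicles to form, and several of them are themselves cut into bioactive peptides. The convertases encoded by Pcsk1 and Pcsk2 cleave precursors after pairs of basic residues, carboxypeptidase E (Cpe) trims the basic residues left behind, and Pam converts a terminal glycine into an amide. In the hypothalamus this machinery serves the many peptides of neuroendocrine and integrative neurons, and Vgf is a classical gene induced by growth factors and neuronal activity.

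Vgf and Pcsk1 were the members called higher in IP over the 6 libraries, as were 0.892% of all tested genes. When 1 library at a time was left out, these calls held in 2 (Vgf) and 1 (Pcsk1) of 6 fits. In RPKM, Vgf was 6.29-fold higher in the IP mean than in the input mean, and Pcsk1 was 5.89-fold higher (n = 3 libraries per fraction). Without IP 1 these folds were 3.62 and 3.29. Scg2 and Pcsk2 were higher in IP in all 3 challenges but missed the threshold in the fit without a challenge term. They passed narrowly once the challenge was a term of the model (limma, adjusted p = 0.0467 and 0.0497). That fit called 1.33% of all genes higher. Chga, Pam, Scg3 and Chgb were also higher in all 3 challenges, by smaller amounts that did not pass. Cpe, the member with the highest input level, and Scg5 had log2 folds of 0.19 and -0.09, which did not pass.

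The sequence upstream of several members holds the letters of the cAMP response element (CRE), the site bound by CREB-family transcription factors, which are activated by neuronal activity. RefSeq promoter windows (build GRCm38.p6, 250 bases before to 50 after the annotated start) were at hand for 8 members. They are Scg2, Scg3, Scg5, Chga, Chgb, Pcsk1, Pcsk2 and Pam. Vgf and Cpe were not matched. The 150 bases before the start are printed for the 3 members whose window held the full CRE, and for Chga, which has only its 5-base core. Capitals mark the full CRE (TGACGTCA) and the core (TGACG or its reverse complement), and each sequence reads 5′ to 3′ along the gene.
Pcsk1, chr13:75089707-75089856, plus strand: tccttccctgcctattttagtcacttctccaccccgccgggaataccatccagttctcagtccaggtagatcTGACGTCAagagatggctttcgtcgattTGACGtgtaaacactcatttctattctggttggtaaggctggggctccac
Scg2, chr1:79440027-79440176, minus strand: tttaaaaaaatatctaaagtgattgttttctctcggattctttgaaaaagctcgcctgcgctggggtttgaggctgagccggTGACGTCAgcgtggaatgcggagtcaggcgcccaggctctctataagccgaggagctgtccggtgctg
Chgb, chr2:132781492-132781641, plus strand: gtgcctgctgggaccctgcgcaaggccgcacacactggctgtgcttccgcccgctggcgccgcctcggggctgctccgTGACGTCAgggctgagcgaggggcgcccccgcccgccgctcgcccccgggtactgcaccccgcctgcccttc
Chga, chr12:102554791-102554940, plus strand: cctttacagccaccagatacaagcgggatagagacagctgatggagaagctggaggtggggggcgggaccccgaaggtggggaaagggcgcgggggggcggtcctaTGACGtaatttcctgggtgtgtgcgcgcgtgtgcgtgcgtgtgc
The full CRE began 78 bases before the start of Pcsk1, 68 before that of Scg2 and 72 before that of Chgb. Pcsk1 also carried a separate core 50 bases before the start. Cores outside a full CRE stood 44 bases before the start of Chga, 30 before that of Scg3 and, on the opposite strand, 34 before that of Pcsk2. Scg5 held 3 cores, 1 at 175 bases before the start and 2 after it, and Pam held none.

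Both strands were searched, and each full CRE contains overlapping cores on both strands, which are not counted again above. Counting these as well, a core was present in 7 of the 8 members. The full CRE was found in 3 of the 8 members with a window (37.5%). It was found in 1.79% of all 32851 windows and in 320 of the 8510 tested genes with a window (3.76%). The core was present in 20.8% of all windows and in 35.9% of tested genes with a window. On the 3 related lists described below, it was in 59.4% (dense-core vesicles), 45.8% (neuropeptide precursors) and 16.7% (other processing enzymes) of genes with a window. The full CRE was in 0%, 8.33% and 0% of them. Among genes higher in IP, 5 of 80 with a window held the full CRE (6.25%), as did 5 of 275 genes lower in IP (1.82%). These matches describe letters in a window and are no measure of factor binding.

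**Figure D1:**
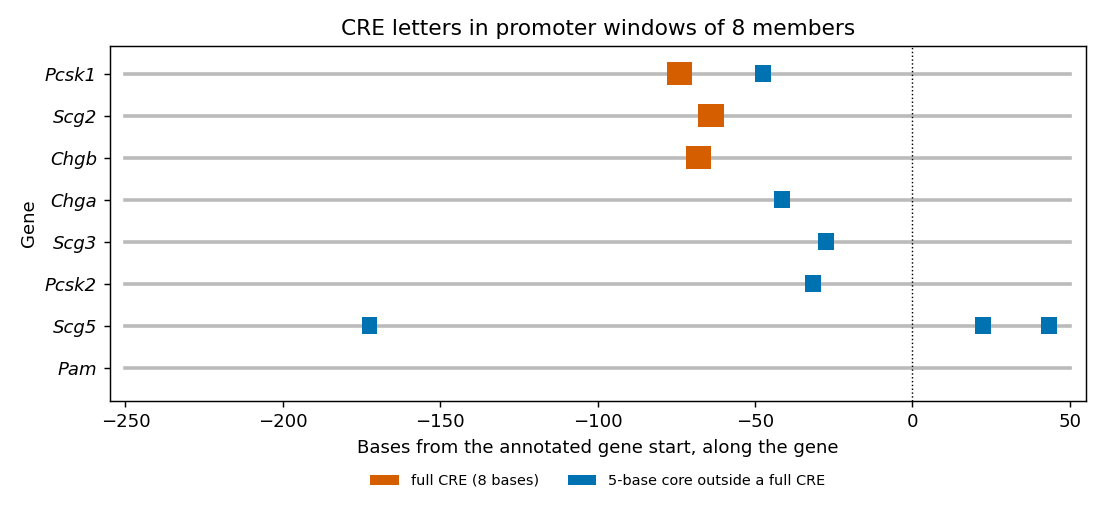
Position of CRE letters in the promoter windows of 8 members, as bases from the annotated gene start along the gene (x axis), 1 line per gene. Orange boxes are full CREs and blue boxes cores outside a full CRE. The full CREs of Pcsk1, Scg2 and Chgb begin between 78 and 68 bases before the start.

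Across the whole table, summed RPKM lay between 374708 and 496125 per library, and the number of reads behind a value is unknown. The first principal component parted inputs from IP libraries (43.2% of the variance). The second (26.0%) set IP 1 apart at 49.0 from the other libraries at -19.9 to 10.01. The members' folds are therefore given with and without IP 1. IP and input were compared with limma on log2(RPKM + 1) over 12328 genes that reached 1 RPKM in 3 libraries or more. All 10 members passed this filter. P-values were adjusted over all these genes (Benjamini-Hochberg), and the threshold was 0.05. The libraries are numbered by challenge, and the labels do not say whether the challenges used separate mice, so p-values measure the spread between these libraries.

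By limma, 2 of the 10 members were higher in IP and 0 lower, where 0.892% of all tested genes were higher and 3.29% lower. At an unadjusted p under 0.05, 6 were higher and 0 lower, where 5.04% and 19.3% of all genes were. Adding the challenge number as a block gave 4 higher members and 0 lower, where 1.33% and 3.99% of all genes were called so. Without IP 1 the numbers were 3 and 0, where the shares over all genes were 3.62% and 10.2%. No member was called higher without input 1, input 2, input 3 or IP 3, where 0.108%, 0.0331%, 0.0498% and 0.237% of all genes were. Without IP 2, 1 member was called higher, against 0.131% of all genes. Calls were thus lost across the whole table in these omissions, from 110 higher genes to between 4 and 29. The median log2 fold of the members was 0.77, against -0.18 over all genes tested. Without IP 1 these medians were 0.56 and -0.18. Scaling every library to a common median moved the median of all genes to -0.02 and that of the members to 0.95. After that scaling 2 members were higher and 0 lower, where 0.982% and 1.04% of all genes were called so. Block and scaling together called 5 higher and 0 lower, where the shares were 1.59% and 1.38%. In 6 members every IP library lay above every input, which held for 6.85% of all genes tested, and in 0 members did every IP library lie below every input (23.5% of all genes). In 8 members IP was higher in all 3 challenges, against 14.0% of all genes. Since the members were picked with earlier results of these data known, these counts describe them and do not test them as a set.

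**Figure D2:**
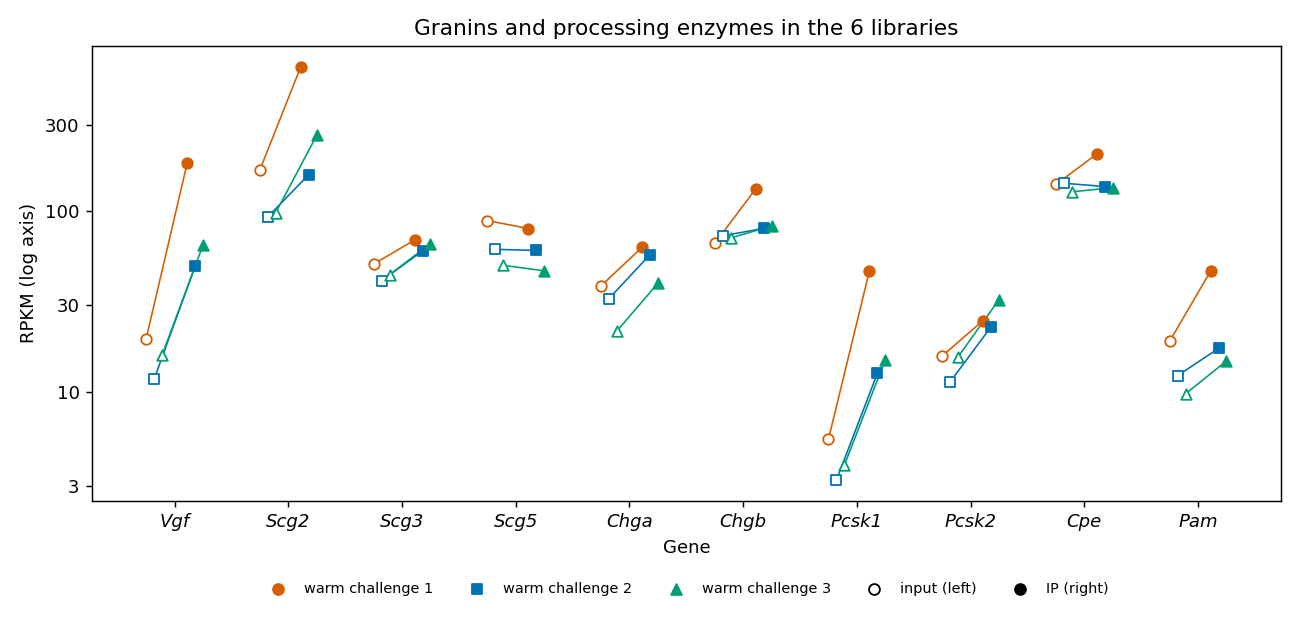
RPKM of the 10 members (log axis) in each library, with open symbols for inputs, filled symbols for IP libraries and lines joining the fractions of 1 warm challenge. Vgf and Pcsk1 show the steepest lines in all 3 challenges, and Scg5 slopes slightly down in each.

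Vgf encodes a granin that is cut into several secreted peptides. It stood at 19.7, 11.7 and 15.9 RPKM in inputs 1, 2 and 3, and at 183, 49.3 and 64.9 RPKM in IP 1, 2 and 3. Every IP library lay above every input, and IP 1 was 3.21 times the mean of the other IP libraries. The ratio of IP to input was 9.33, 4.20 and 4.08 in challenges 1, 2 and 3, so the enrichment was present in each but about double in the first. The log2 fold was 2.37 (SE 0.44, adjusted p = 0.0295), and 1.81 without IP 1 (adjusted p = 0.0096). The call held without IP 2 (adjusted p = 0.0335) and ended without input 1 (0.101), input 2 (0.121), input 3 (0.0861) or IP 3 (0.0669). With the block the adjusted p was 0.0203. Vgf had the 16th highest log2 fold of the 12328 genes tested.

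Scg2 encodes secretogranin II, the precursor of secretoneurin. It stood at 169, 92.9 and 98.0 RPKM in the inputs and at 630, 159 and 262 RPKM in the IP libraries, in the order of the challenges. IP 1 was the highest library by far, while IP 2 lay below input 1, so the groups overlapped. Within each challenge IP was higher, by ratios of 3.73, 1.71 and 2.68. This gave a log2 fold of 1.36 (SE 0.48, 95% interval 0.28 to 2.43, adjusted p = 0.125), which passed with the block (adjusted p = 0.0467). Without IP 1 it was 0.82 (adjusted p = 0.143). Scg2 took the largest part of the summed granin RPKM in every library, from 29.7% in input 2 to 54.4% in IP 1.

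Chromogranins A and B, encoded by Chga and Chgb, are major soluble proteins of dense-core vesicles. Chga stood at 38.5, 32.7 and 21.7 RPKM in the inputs and at 62.9, 57.3 and 39.8 RPKM in the IP libraries. Every IP library lay above every input, although IP 3 exceeded input 1 only narrowly. The 3 ratios of IP to input for Chga were close together, at 1.63, 1.75 and 1.84. Its log2 fold of 0.78 (SE 0.28) did not pass (adjusted p = 0.132, and 0.0537 with the block), nor did the 0.65 found without IP 1 (adjusted p = 0.157). Chgb stood at 66.2, 72.9 and 70.8 RPKM in the inputs and at 133, 80.1 and 82.6 RPKM in the IP libraries. Its groups did not overlap either, but the separation from inputs was wide in IP 1 only. The log2 fold was 0.45 (SE 0.26, adjusted p = 0.322) and 0.22 without IP 1 (adjusted p = 0.478).

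Scg3 and Scg5 encode secretogranin III, which anchors other granins to the vesicle membrane, and a chaperone that Pcsk2 needs to mature. Scg3 was the least variable granin relative to its level in IP, at 69.0, 60.1 and 66.1 RPKM, against 50.8, 41.1 and 44.4 RPKM in the inputs. Every IP library lay above every input, with ratios of 1.36, 1.46 and 1.49. The log2 fold of Scg3 was 0.51 (SE 0.21, adjusted p = 0.176), or 0.47 without IP 1 (adjusted p = 0.145). Scg5 stood at 88.5, 61.3 and 50.002 RPKM in the inputs and at 80.0, 60.5 and 46.7 RPKM in the IP libraries. In each challenge the IP value lay just under its input (ratios 0.904, 0.986 and 0.933), and the groups overlapped almost fully. Its log2 fold was -0.09 (95% interval -0.74 to 0.57, adjusted p = 0.893), and median scaling turned it to 0.10. Without IP 1 it was -0.28 (adjusted p = 0.518). In both fractions Scg5 was highest in challenge 1 and lowest in challenge 3.

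Pcsk1 encodes the convertase that makes the early cuts in many precursors. It stood at 5.45, 3.24 and 3.92 RPKM in the inputs and at 46.6, 12.6 and 15.1 RPKM in the IP libraries. Every IP library was more than double every input, and IP 1 was 3.37 times the mean of the other IP libraries. The ratios of IP to input were 8.55, 3.89 and 3.84, an order like that of Vgf. The log2 fold was 2.09 (SE 0.43, adjusted p = 0.0358), the 24th highest of all genes tested. Without IP 1 it was 1.53 (adjusted p = 0.0126). The call ended without input 1 (adjusted p = 0.126), input 2 (0.139), input 3 (0.109), IP 2 (0.0537) or IP 3 (0.0713), and the blocked fit gave 0.0225. Pcsk1 has the full CRE printed above, as do Scg2, called with the block alone, and Chgb, which did not pass.

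Pcsk2 encodes the convertase that acts later and completes the cleavage of many peptides. It stood at 15.8, 11.3 and 15.6 RPKM in the inputs and at 24.8, 22.9 and 32.3 RPKM in the IP libraries. The groups did not overlap, and here IP 3 rather than IP 1 was the highest library. The ratios were 1.57, 2.02 and 2.07. The log2 fold of 0.86 (SE 0.23) missed the threshold without the block (adjusted p = 0.0702). It passed with the block (adjusted p = 0.0497) and without IP 1 (0.90, adjusted p = 0.0433).

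Cpe stood at 140, 142 and 128 RPKM in the inputs and at 207, 137 and 135 RPKM in the IP libraries. Only IP 1 stood out, and IP 2 lay below its own input. Over all libraries Cpe had a log2 fold of 0.19 (95% interval -0.40 to 0.78, adjusted p = 0.703), and -0.01 without IP 1 (adjusted p = 0.976). Pam stood at 19.0, 12.3 and 9.72 RPKM in the inputs and at 46.4, 17.3 and 14.8 RPKM in the IP libraries. IP was higher in each challenge, by ratios of 2.45, 1.42 and 1.52, while IP 2 and IP 3 lay below input 1, so the groups overlapped. The log2 fold of Pam was 0.76 (SE 0.41, adjusted p = 0.296), or 0.27 without IP 1 (adjusted p = 0.548).

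**Figure D3:**
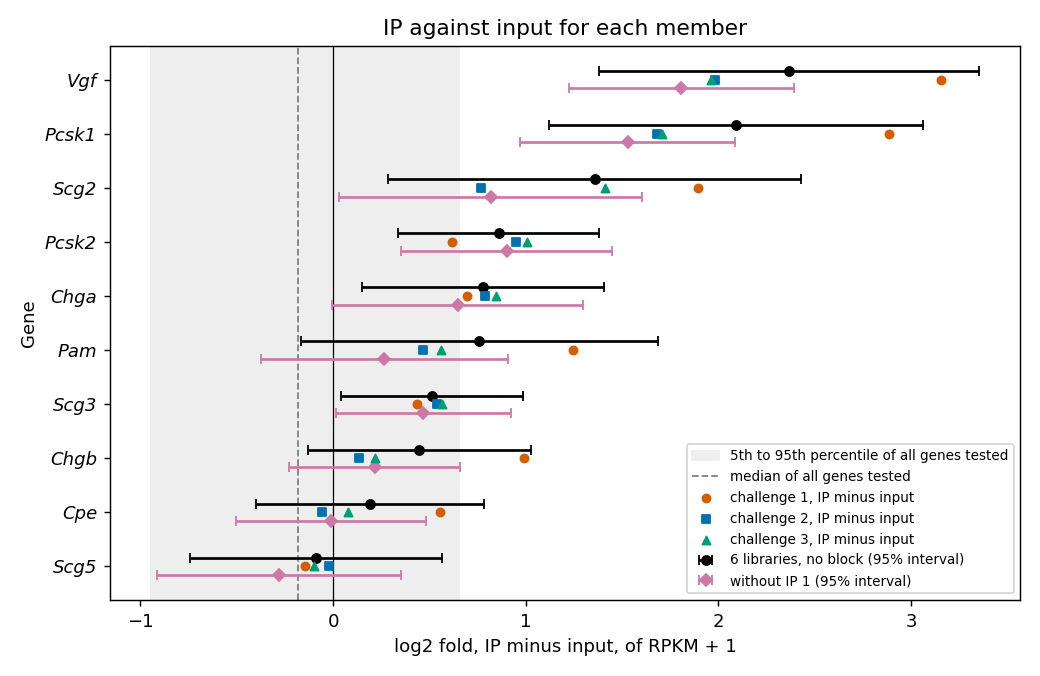
log2 fold of IP over input for each member (x axis, on RPKM + 1), with all 6 libraries (black) and without IP 1 (pink), bars being 95% intervals, and the 3 challenges as coloured points. The grey band holds the 5th to 95th percentile of all genes tested, and the dashed line is their median of -0.18. The band is drawn from folds over all 6 libraries, so it is no scale for the points of single challenges. The black points of Vgf, Pcsk1, Scg2, Pcsk2, Chga and Pam lie beyond it.

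Challenge 1 held high values of these genes in both fractions. Input 1 was the highest of the 3 inputs for 8 of 10 members, where this held for 32.5% of all genes tested. IP 1 was the highest of all 6 libraries for 8 of 10 members, against 15.6% of all genes. The difference between IP and input in log2(RPKM + 1) was largest in challenge 1 for 6 members, against 40.6% of all genes. These 6 were Vgf, Scg2, Chgb, Pcsk1, Cpe and Pam. On the same log2 scale Scg3, Chga and Pcsk2 had their smallest difference there and Scg5 its most negative one. Summed over the 10 members, RPKM was 613, 482 and 458 in the inputs and 1482, 656 and 759 in the IP libraries. The part played by IP 1's general distance from the other libraries was not tested.

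The order of the members by level also differed between the fractions, on the RPKM scale, which is per length. In input, Cpe (137 ± 8.003 RPKM) and Scg2 (120 ± 42.5) were highest, followed by Chgb (70.0 ± 3.45), Scg5 (66.6 ± 19.8), Scg3 (45.4 ± 4.96) and Chga (31.0 ± 8.55). Vgf (15.8 ± 3.96), Pcsk2 (14.2 ± 2.52) and Pam (13.7 ± 4.79) came next, and Pcsk1 was lowest (4.21 ± 1.13; SD, n = 3 throughout). Neighbours whose library values overlapped were Cpe and Scg2, then Chgb, Scg5 and Scg3, then Vgf, Pcsk2 and Pam.

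In IP, Scg2 led (350 ± 248 RPKM), followed by Cpe (159 ± 41.2), Vgf (99.2 ± 73.3) and Chgb (98.4 ± 29.6). Scg3 (65.1 ± 4.57), Scg5 (62.4 ± 16.7) and Chga (53.3 ± 12.1) formed the middle, and Pcsk2 (26.6 ± 5.01), Pam (26.2 ± 17.6) and Pcsk1 (24.8 ± 19.0) the end. Neighbours within each of these 3 sets overlapped in their library values. Without IP 1 the IP means were 211 RPKM for Scg2, 136 for Cpe, 81.4 for Chgb, 63.1 for Scg3, 57.1 for Vgf, 53.6 for Scg5, 48.6 for Chga, 27.6 for Pcsk2, 16.1 for Pam and 13.8 for Pcsk1. The place of Vgf beside Chgb thus rested on IP 1, and without that library Vgf stood between Scg3 and Scg5, still above its neighbours in input, Pcsk2 and Pam. Among all 13724 entries ordered by mean RPKM, Vgf was at place 4721 in input and 816 in IP (1451 without IP 1). Pcsk1 was at place 9272 and 3077 (4812 without IP 1), and Cpe at 560 and 476 (616 without IP 1).

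Ratios between members within a library do not depend on how libraries are scaled to one another. The ratio of Pcsk1 to Pcsk2 was 0.346, 0.286 and 0.251 in the inputs and 1.88, 0.552 and 0.466 in the IP libraries. All IP ratios lay above all input ratios, and in IP 1 alone was Pcsk1 the more abundant convertase transcript. The ratio of Vgf to Scg2 was 0.116, 0.126 and 0.162 in the inputs and 0.291, 0.310 and 0.248 in the IP libraries, again without overlap. IP 1 did not stand out in this second ratio. Chga to Chgb (0.446 ± 0.138 in input and 0.557 ± 0.137 in IP; SD, n = 3) and Cpe to Pam (10.7 ± 2.98 and 7.14 ± 2.41) overlapped between the fractions. Cpe to Pam was nonetheless lower in IP within each challenge. Ratios are given with no test, since an exact permutation of 3 against 3 libraries cannot give a two-sided p below 0.1.

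**Figure D4:**
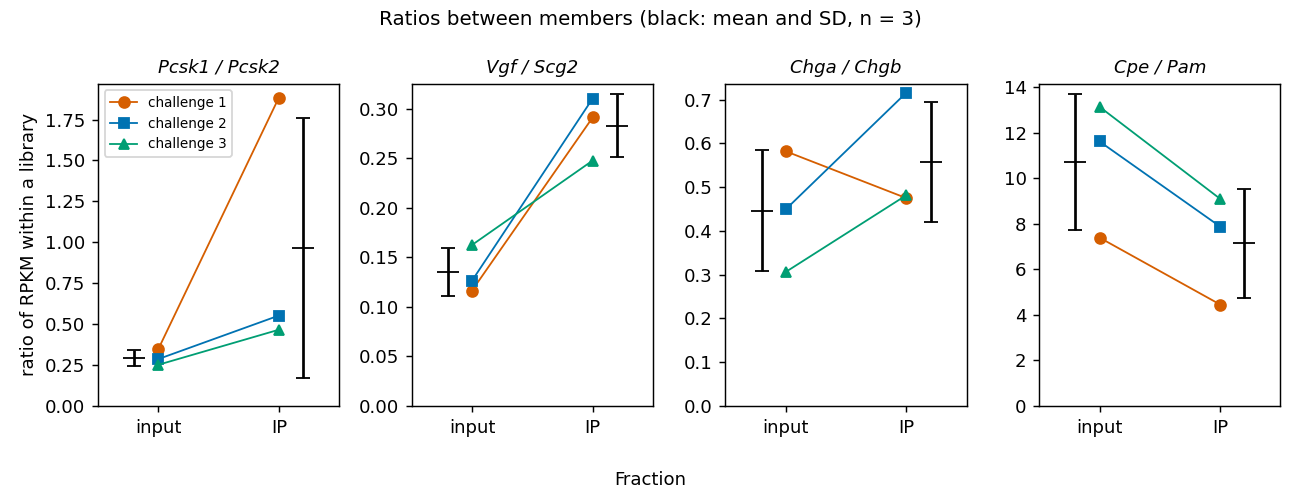
Ratio of RPKM between 2 members within each library (y axis, from 0), for inputs and IP libraries, with lines joining the fractions of 1 challenge and black bars for mean and SD (n = 3). Pcsk1 to Pcsk2 and Vgf to Scg2 do not overlap between the fractions, whereas Chga to Chgb and Cpe to Pam do.

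Vgf and Pcsk1 had the most similar profiles of any pair that involves either. Likeness was the Euclidean distance between log2(RPKM + 1) values over the 6 libraries, after subtracting each gene's mean, among the 12328 genes tested. The gene nearest to Vgf was Pcsk1 and the gene nearest to Pcsk1 was Vgf, at a distance of 0.38. Next to Vgf came Srrm2, a splicing factor gene (0.66), and Fosl1, an AP-1 subunit gene (0.74). Srrm2 missed the threshold over the 6 libraries (limma, adjusted p = 0.0615). Fosl1 stood at only 0.104 to 0.949 RPKM in the inputs, below the pseudocount of 1, which flattens such values. Its RPKM ratios of IP to input (10.7, 29.4 and 50.3 in challenges 1, 2 and 3) rose where those of Vgf fell. Next to Pcsk1 came Galr1, a galanin receptor gene (0.49), and Irs2, an insulin receptor substrate gene (0.55). All 6 libraries enter each distance, and IP 1 is the highest library in each of these genes. Srrm2, for example, stood at 902 RPKM in IP 1, against 158 and 230 RPKM in IP 2 and IP 3 and 61.0 to 82.3 RPKM in the inputs.

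A list drawn from textbook knowledge held 24 other genes of peptide processing, namely convertases, trimming and modifying enzymes and a few of their inhibitors and related proteins, of which 22 were tested by limma. Of these, 1 was lower, 21 missed the threshold, and 0 were higher even at an unadjusted p under 0.05. Positive folds numbered 8 and negative folds 14, with a median log2 fold of -0.19. Over all tested genes the median was -0.18, with 0.892% higher, 3.29% lower and 5.04% higher at an unadjusted p under 0.05. The 1 lower gene was Cpm, a membrane carboxypeptidase, at 3.802 RPKM or more in the inputs and 1.35 to 1.82 RPKM in the IP libraries. Its log2 fold was -0.94 (SE 0.20, adjusted p = 0.0402), which missed the threshold after median scaling (adjusted p = 0.0715). The call held in 1 of the 6 omissions of a library, that of IP 1 (adjusted p = 0.0219), and the highest adjusted p over the others was 0.169. Pcsk1n, whose product proSAAS inhibits Pcsk1, stood at 52.2 to 94.3 RPKM in the inputs and 51.6 to 66.7 RPKM in the IP libraries (log2 fold -0.32, adjusted p = 0.502). Furin, the convertase of the constitutive pathway, stood at 1.33 to 2.49 RPKM and 1.09 to 2.26 RPKM (log2 fold -0.03, adjusted p = 0.969). Tpst1, a tyrosine sulfotransferase, had a log2 fold of -0.43 (adjusted p = 0.266). Mme, the peptidase neprilysin, had -0.56 (adjusted p = 0.427), and Aplp1, an amyloid precursor-like protein, -0.32 (adjusted p = 0.471).

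Genes for the formation and release of dense-core vesicles formed a list of 42, of which 41 were tested. They held 0 higher, 1 lower and 40 not passing, with a median log2 fold of -0.09. At an unadjusted p under 0.05, 2 were higher and 4 lower. Over all genes 0.892% were higher and 3.29% lower, or 5.04% and 19.3% unadjusted, and the median was -0.18. The 1 lower gene was Rab2b, a small GTPase (log2 fold -0.85, SE 0.20, adjusted p = 0.0490). The call was lost after median scaling (adjusted p = 0.109) and also with a pseudocount of 0.1, with no filter or without the variance trend. It held in the omission of IP 1 alone (adjusted p = 0.0331), with up to 0.182 in the others. Rab27b, a GTPase of vesicle docking, had -0.62 (adjusted p = 0.113, and 0.0395 without IP 1). Vti1a, a SNARE of the trans-Golgi, had -0.60 (adjusted p = 0.143). Ptprn and Ptprn2 encode related membrane proteins of the vesicle. Ptprn had the highest fold on this list, at 52.2, 34.3 and 37.8 RPKM in the inputs and 123, 47.0 and 71.6 RPKM in the IP libraries (log2 fold 0.85, adjusted p = 0.170, and 0.0665 with the block). Ptprn2 had a log2 fold of -0.30 (adjusted p = 0.552).

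The precursors on which these enzymes act had folds in both directions, and their median lay close to that of all genes. Of 40 listed neuropeptide genes 28 were tested, with 3 higher (7 at an unadjusted p under 0.05), 0 lower (4 at that level) and 25 not passing, and 12 positive and 16 negative folds (median -0.19). Over all genes 0.892% were higher and 3.29% lower, or 5.04% and 19.3% unadjusted, and the median was -0.18. The block gave 5 higher and 2 lower, where 1.33% and 3.99% of all genes were called so. The 3 were Adcyap1, the gene of the peptide PACAP (log2 fold 3.18), Crh, corticotropin-releasing hormone (2.58), and Nms, neuromedin S (2.02), and their calls held in 3, 6 and 2 of the 6 omissions, with an adjusted p of at most 0.1, 0.0418 and 0.114. Nts, neurotensin, had 1.44 (adjusted p = 0.0583, and 0.0467 with the block), and Pnoc, prepronociceptin, had 1.23 (adjusted p = 0.153 and 0.0254). The block also called 2 genes lower. These were Oxt, oxytocin, at -2.93 (adjusted p = 0.125, and 0.0125 with the block), and Gnrh1, gonadotropin-releasing hormone, at -2.10 (adjusted p = 0.0698 and 0.0304). Pnoc, Oxt and Gnrh1 were named after their values were seen.

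**Figure D5:**
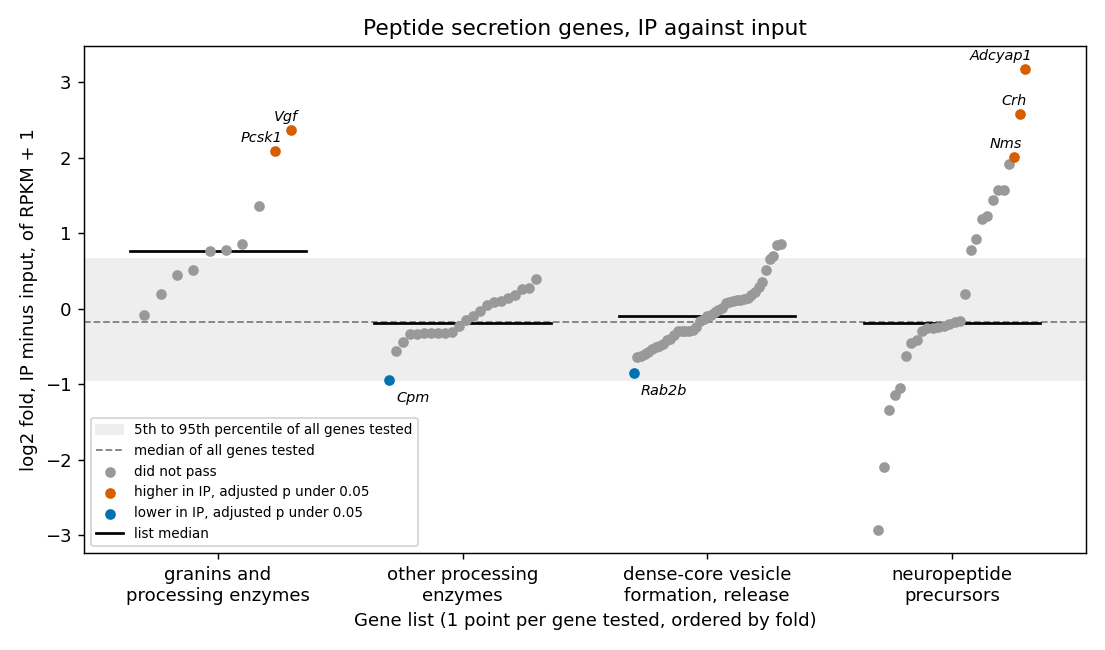
log2 fold of IP over input (y axis, on RPKM + 1) for each tested gene of the 10 members and of 3 related lists, ordered by fold within a list. Black lines are list medians, the grey band is the 5th to 95th percentile of all genes tested, and named points passed the test. The members' median of 0.77 lies above the band's dashed median of -0.18, and the other lists' medians lie between -0.19 and -0.09.

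Oligodendrocyte and red cell markers differed between the fractions as well, and most other marker lists held few calls or none. The shares over all genes tested were 0.892% higher and 3.29% lower, or 5.04% and 19.3% at an unadjusted p under 0.05. Without IP 1, 3.62% of all genes were higher and 10.2% lower by adjusted p. Of 10 oligodendrocyte markers 8 were lower in IP and 0 higher, and their summed level was 959 to 1069 RPKM in the inputs and 284 to 343 RPKM in the IP libraries. After median scaling 6 of them were lower. Of 9 neuronal markers 0 passed by limma (2 were higher at an unadjusted p under 0.05, and 1 passed without IP 1), with sums of 3943 to 5375 RPKM in input and 3405 to 6879 RPKM in IP. Of 9 astrocyte markers 0 passed over the 6 libraries (2 were lower at an unadjusted p under 0.05, and 2 passed without IP 1), with sums of 298 to 398 and 268 to 310 RPKM. Astrocytes too are known to express Cpe and Scg3. Red cell markers were higher (2 of 2 tested), and the 3 listed summed to 11.3 to 42.2 RPKM in input and 170 to 477 RPKM in IP. Sums cover every listed marker of a type, tested or not.

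Of 5 oligodendrocyte precursor markers 4 were tested, with 1 higher and 1 lower (63.7 to 77.7 and 26.7 to 56.9 RPKM). By the same test 0.892% of all genes were higher and 3.29% lower. Of 4 ependymal markers 3 were tested and 1 was lower (6.81 to 15.3 and 3.47 to 8.28 RPKM). After median scaling no precursor or ependymal marker was lower, and 1 precursor marker was higher. Microglial markers (7 listed, 2 tested, 0 passing) summed to at most 15.6 RPKM in any library, and none of 7 endothelial markers reached the filter. Of 5 pituitary hormone genes, Pomc was listed, at no more than 3.03 RPKM in any library, and Gh, Prl, Tshb and Cga were not listed. Of 11 markers of preoptic and anterior hypothalamic neurons 10 were listed and 8 tested. Over the 6 libraries 0 passed, and 3 were higher at an unadjusted p under 0.05 (5.04% of all genes). Without IP 1, 2 were higher (3.62% of all genes). The 10 listed summed to 111 to 212 RPKM in input and 212 to 279 RPKM in IP. The part of these cell types in the members' values was not tested, and in bulk RNA fewer cells of a type and less RNA per cell cannot be told apart.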

How the data were processed

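The values are RPKM per gene as the authors deposited them in 1 table, in linear units per the file headers, with a column for each library. The build is mm9 in the submitters' processing notes, and the aligner, counting tool and annotation are not stated. Every listed value lies above 0.1 RPKM, so genes at or below that in any library are missed. RPKM holds no read counts. Ratios of values under 0.6 RPKM came within 1% of ratios of whole numbers up to 4 in at most 17.2% of cases, so whole reads were not recovered and the depth is unknown.

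Values were analysed as log2(RPKM + 1), which understates changes of low genes. The test was limma 3.58.1 in R 4.3.3 (mean-variance trend, two-sided, no block, Benjamini-Hochberg over 12328 genes), checked on simulated data. The simulated libraries had independent noise, with no pairing by challenge and no outlying library. Python 3.11.15, pandas 2.3.3, numpy 2.4.6 and matplotlib 3.10.9 did the rest. Alternatives were 2 other pseudocounts, 2 filters, 2 scalings, no trend, a block and leaving out each library. The labels give an input and an IP the same challenge number. On that ground they were taken as paired in the comparisons within a challenge and in the fits with the block. The main fit leaves this pairing out. Their deviations from the group means correlated by 0.05, 0.61 and 0.27 within challenges 1, 2 and 3. Between an input and an IP of different challenges the correlations ran from -0.52 to 0.18. Input 1 correlated more with IP 2 (0.16) than with IP 1, so the values do not single out the pairing of challenge 1.

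The members and lists were chosen with earlier results of these data known. All 10 members are named. From each related list up to 4 genes are named, first those past the threshold by absolute fold and then those of smallest p, along with Pcsk1n, Furin, Ptprn and Ptprn2. The 3 nearest profiles are given for each member called. Older symbols were matched through RefSeq (GRCm38.p6).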

Additional observations from a re-analysis of the deposited data

How the results depend on the processing

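Adding the challenge number as a replicate block gave 4 higher members instead of 2, with Scg2 (log2 fold 1.36) and Pcsk2 (0.86) added. The neuropeptide list then had 5 higher and 2 lower, and the block changed no other call of a member. The block with median scaling, added after seeing the data, called 5 members, with Scg2 (1.55), Pcsk2 (1.04) and Chga (0.96), and 196 genes higher and 170 lower. Over all genes, 110 were higher and 406 lower, and the lower ones were 128 after median scaling and 124 after quantile normalization. Scg5 turned to 0.10 after median scaling, with or without the block, to 0.13 without input 1 and to 0.10 without IP 3, and Cpe to -0.011 without IP 1. The lower gene of the vesicle list was lost (0) with a pseudocount of 0.1, no filter, either scaling or no trend, and that of the enzyme list (0) with a filter of 5 RPKM or either scaling. Leaving out 1 library gave 4 to 443 genes higher and 17 to 1250 lower, and 0 to 3 members higher. Log2 folds then ranged from 1.81 to 2.74 for Vgf, 1.53 to 2.43 for Pcsk1, 0.71 to 0.96 for Pcsk2, -0.28 to 0.13 for Scg5 and -0.011 to 0.30 for Cpe. The lists then had 0 to 2 lower (vesicles), 0 to 2 lower (enzymes), and 1 to 4 higher and 0 to 1 lower (neuropeptides). The cause of these changes was not tested. An omission leaves fewer libraries. The unknown read depth limits what can be said of low values such as Pcsk1 in input and Furin.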
